A study of Mus musculus with 6 samples.

Results

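Of the 24080 genes in the table of normalized counts, 10 were taken by symbol as Wnt receptors and transcriptional readouts, and all 10 had a row. They are the Frizzled receptors *Fzd4*, *Fzd6* and *Fzd7*, the coreceptors *Lrp5* and *Lrp6*, the T-cell factors *Tcf7l1*, *Tcf7l2* and *Lef1*, and the target genes *Axin2* and *Apcdd1*. Total RNA was sequenced from VEC-positive and VEC-null mouse endothelial cells (ECs), with 3 libraries of each. Both are one line of ECs made from embryonic stem cells in which the *VEC* gene (vascular endothelial cadherin) carries a homozygous null mutation. VEC-positive cells differ from VEC-null cells by a wild-type *VEC* that a retrovirus brought in, so both groups carry the null allele. The comparison asks which transcripts differ once VEC is put back. It sets one line against its reconstituted derivative, so an effect of VEC and any other difference between the lines cannot be told apart.

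Wnt ligands bind a Frizzled receptor together with Lrp5 or Lrp6, which halts the complex of Axin, APC and glycogen synthase kinase that marks β-catenin for destruction. Stabilized β-catenin enters the nucleus and joins T-cell factors (TCF) at target genes, among them *Axin2*. In vessels of the brain and retina this pathway, driven by Wnt7 ligands and by norrin through Fzd4, Lrp5 and Tspan12, sustains the blood-brain and blood-retina barriers. β-Catenin also binds the cytoplasmic tail of VEC at adherens junctions.

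Recovered reads ranged from 6036155 to 14136376 per library. Endothelial identity was checked with 12 marker genes, all of which had a row and averaged at least 10 normalized counts. Their summed levels were 71823 to 73828 in VEC-positive and 49568 to 52231 in VEC-null libraries. By the test described below, 9 of these 12 were higher and 1 lower in VEC-positive cells. Over all tested genes, 20.9% were higher and 16.4% lower. Of 8 pluripotency markers, 4 had a row, their summed level was at most 13.7 in any library, and none passed the filter on low values. Summed levels of mural and fibroblast markers (7 of 8 with a row) were 214.6 to 225.1 in VEC-positive and 72.7 to 90.3 in VEC-null libraries. Most of that gap was *Pdgfrb*, the receptor of pericytes. It had 105.3 ± 11.4 normalized counts in VEC-positive and 1.10 ± 0.96 in VEC-null libraries (SD, n = 3 each). Of the 4 mural and fibroblast markers tested, 1 was higher and 3 did not pass, beside the same shares of all genes. Without VEC-null 3 the list had 2 higher and 1 lower, where 27.1% of all genes were higher and 23.9% lower. Haematopoietic markers (7 of 8 with a row) summed to 217.2 to 285.8 in VEC-positive and 172.9 to 456.0 in VEC-null libraries. Of these haematopoietic markers 4 were tested. The 1 of them that passed the test was *Itga2b*, the platelet integrin, higher at 87.1 ± 13.4 normalized counts in VEC-positive and 29.0 ± 12.9 in VEC-null libraries (SD, n = 3 each). The other 3 tested did not pass, where 20.9% of all genes were higher and 16.4% lower. Without VEC-null 3 this list had 1 higher and 1 lower, where 27.1% of all genes were higher and 23.9% lower. Among the haematopoietic markers not tested, *Gata1* and *Spi1* were at 0 in each VEC-positive library. They had at most 3 reads in any VEC-null one. Epithelial markers (4 of 8) summed to 16.1 to 37.0 in VEC-positive and 0 to 3.15 in VEC-null libraries, and neural ones (6 of 8) to 25.3 to 58.1 in VEC-positive and 49.6 to 134.6 in VEC-null libraries. The part of these other cell type markers in the results was not tested. *Cdh5*, the gene of VEC, ran against the labels, with 794.3, 739.4 and 749.7 normalized counts in the libraries labelled VEC-positive and 1334, 1439 and 1689 in those labelled VEC-null (log2 fold change -0.96, limma adjusted p = 0.000182). *Cldn5*, the endothelial tight junction gene that VEC is known to raise, ran the way of the labels, with 429.2, 512.4 and 434.1 normalized counts in VEC-positive and 9.18, 5.51 and 4.43 in VEC-null libraries. The paper names claudin-5 among the genes that VEC raises and marks it in its plots of this RNA sequencing. The direction of *Cldn5* was thus known beforehand and is no independent check of the labels. Gene counts cannot separate a mutant transcript from a transferred one, and every direction given is that of the labels. Mitochondrial transcripts took 17.97% to 24.2% of reads in VEC-positive and 9.62% to 14.9% in VEC-null libraries, and their part in the results was not tested. VEC-null 3 stood apart: the chi-square of its reads averaged 48.9 per gene against VEC-null 1 and 50.1 against VEC-null 2, where VEC-null 1 and 2 gave 6.55 and the VEC-positive pairs 11.8 to 19.1.

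The Wnt coreceptors and 2 T-cell factors were higher in VEC-positive cells, while *Fzd4* and the target gene *Apcdd1* were lower. Normalized counts with a pseudocount of 1 were compared on the log2 scale with limma, and a gene passed at a Benjamini-Hochberg adjusted p below 0.05 over the 14032 genes with at least 10 normalized counts in at least 3 libraries. Of the 10 genes, 9 were tested: *Lrp5*, *Lrp6*, *Tcf7l1* and *Tcf7l2* were higher, *Fzd4* and *Apcdd1* lower, and *Fzd6*, *Fzd7* and *Axin2* did not pass. *Lef1* was below the filter. Over all tested genes, 20.9% were higher and 16.4% lower, 37.3% in either direction, and the median log2 fold change was -0.01, where that of the 9 was 0.31. Scaling the libraries to equal totals moved the median of all genes to -0.32 and left 3 of the 9 higher and 2 lower, where 11.2% of all genes were higher and 35.3% lower. In bulk RNA, fewer cells that transcribe a gene and less RNA per cell cannot be told apart.

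**Figure D1:**
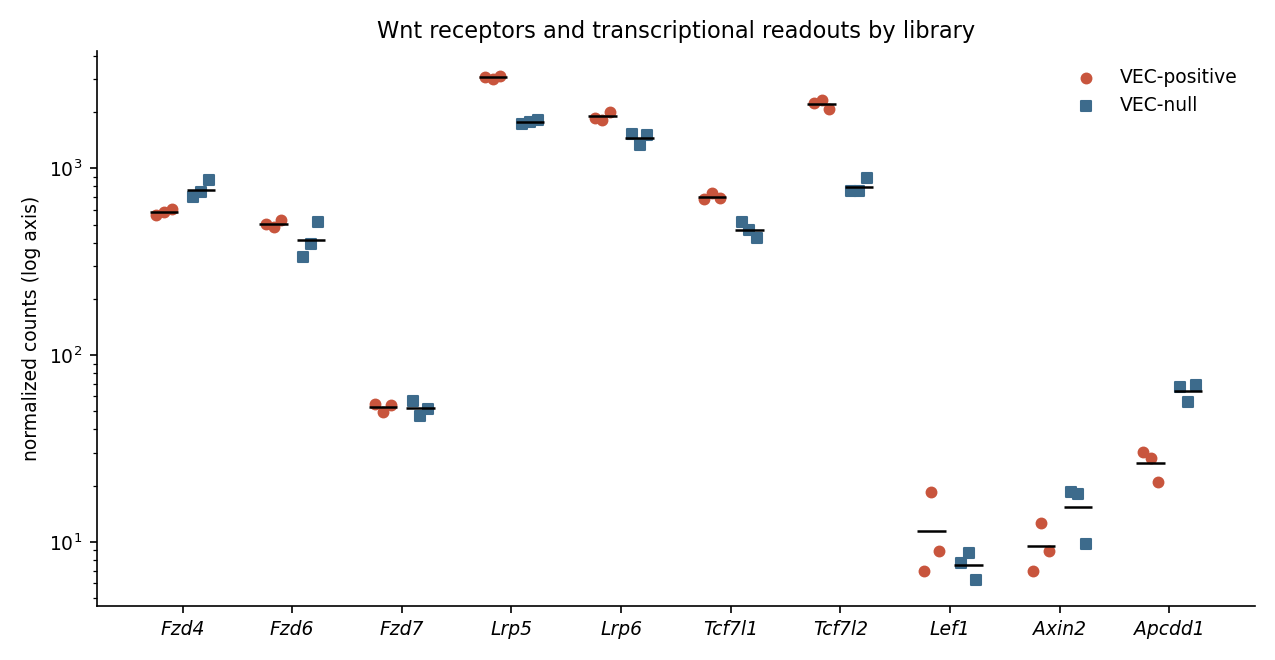
Normalized counts of the 10 genes on a log axis, with 1 point per library (circles, VEC-positive; squares, VEC-null) and a line at each group's mean. *Tcf7l2* and *Lrp5* are apart between the groups, while *Axin2* and *Lef1* sit at or below 18.5 normalized counts in every library.

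*Lrp5* was among the most abundant of the 10 genes per kilobase in both groups. This gene (ENSMUSG00000024913, chromosome 19 of mm10 from 3584828 to 3686564, minus strand) encodes a coreceptor that Wnt and norrin signals share, and its loss impairs retinal vessels. It had 3094, 3013 and 3124 normalized counts in VEC-positive 1, 2 and 3 and 1731, 1772 and 1824 in VEC-null 1, 2 and 3. The groups did not overlap and the libraries of each were close together. The log2 fold change was 0.79 (standard error 0.064, adjusted p = 5.97e-05), or 1.73-fold, and it passed in each of 17 alternative settings, with values of 0.48 to 0.81.

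*Lrp6*, the close relative of *Lrp5* (ENSMUSG00000030201, chromosome 6 from 134446476 to 134566965, minus strand), moved the same way by less. Its normalized counts were 1871, 1826 and 2005 in VEC-positive libraries and 1527, 1328 and 1506 in VEC-null ones, again with no overlap. On the log2 scale the difference was 0.39 (standard error 0.082, adjusted p = 0.00714), or 1.31-fold. It no longer passed with equal totals (log2 fold change 0.08, adjusted p = 0.479) or with equal totals after mitochondrial transcripts were left out (0.24, adjusted p = 0.0618).

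The balance between the coreceptors leaned further to *Lrp5* in VEC-positive cells. A ratio of 2 genes within a library does not depend on the scaling of that library. Reads per kilobase of *Lrp6* over *Lrp5* were 0.431, 0.432 and 0.457 in VEC-positive libraries and 0.629, 0.534 and 0.588 in VEC-null ones, and the ratio was 0.755 times as large in VEC-positive cells. All 3 VEC-positive ratios were below all 3 VEC-null ratios, for which an exact two-sided permutation test gave p = 0.1, the smallest that 3 against 3 libraries allow (adjusted p = 0.125 over 5 ratios).

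Among the Frizzled receptors, *Fzd4* was lower in VEC-positive cells, *Fzd6* did not pass and *Fzd7* was close to level. *Fzd4* (ENSMUSG00000049791, chromosome 7 from 89404355 to 89413134, plus strand), the receptor of norrin, had 564.5, 586.4 and 603.6 normalized counts in VEC-positive libraries and 702.3, 745.8 and 860.9 in VEC-null ones. VEC-null 3 was the highest library, and the groups did not overlap. It was 0.763-fold in VEC-positive cells, a log2 fold change of -0.39 (standard error 0.094) with an adjusted p of 0.0129. Without VEC-positive 1 the value was -0.37 and did not pass (adjusted p = 0.0586), and without VEC-null 3 it was -0.31 and passed (adjusted p = 0.0073).

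*Fzd6* (ENSMUSG00000022297, chromosome 15 from 39006034 to 39038188, plus strand), a receptor best known from planar cell polarity, is a gene whose call turned on a single library. It had 500.4, 487.1 and 531.0 normalized counts in VEC-positive libraries and 335.1, 393.8 and 513.3 in VEC-null 1, 2 and 3. VEC-null 3 reached into the VEC-positive range, while VEC-null 1 and 2 lay below it. The log2 fold change of 0.31 (95% interval -0.03 to 0.65) had an adjusted p of 0.141, against 0.48 and 0.00288 without VEC-null 3. With equal totals it was 0.00.

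*Fzd7* (ENSMUSG00000041075, chromosome 1 from 59482424 to 59486955, plus strand) was the least abundant of these receptors, with 54.8, 49.7 and 54.1 normalized counts in VEC-positive libraries and 56.6, 47.3 and 51.4 in VEC-null ones. The groups overlapped, and the log2 fold change was 0.03 (95% interval -0.37 to 0.44, adjusted p = 0.903), turning to -0.27 with equal totals, also not past the test.

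**Figure D2:**
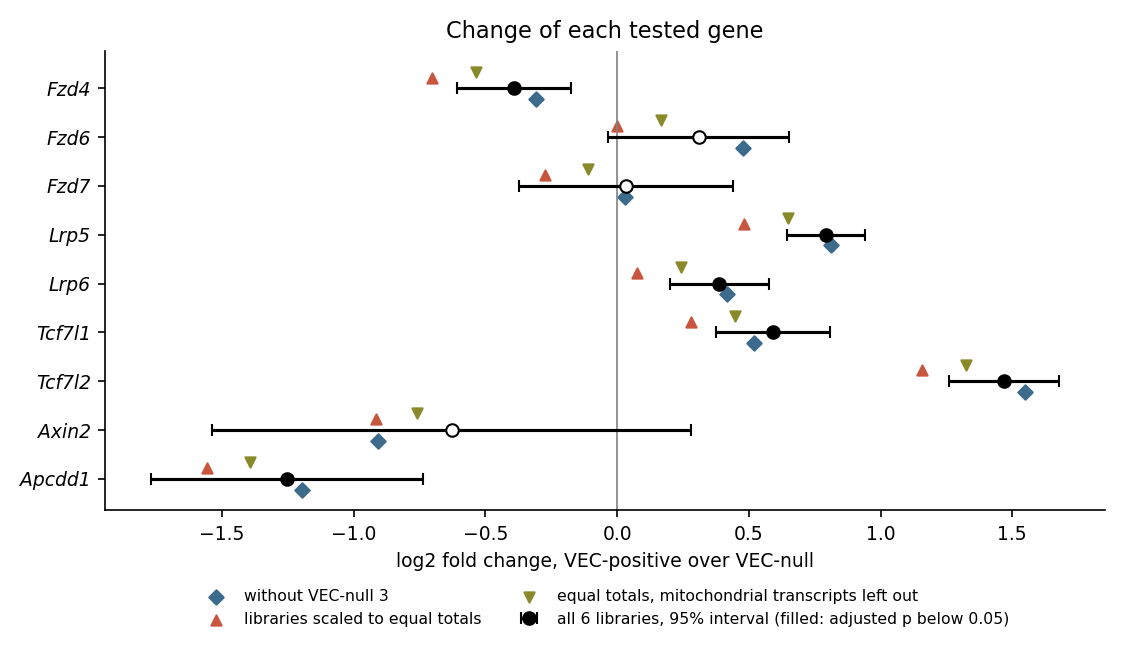
Log2 fold changes (VEC-positive over VEC-null) of the 9 tested genes, with 95% intervals from limma (filled circles passed the test, open ones did not). Coloured points are the same value without VEC-null 3 or under other scalings, and with equal totals every point lies further left, with *Lrp6* at 0.08 and *Fzd6* at 0.00.

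Within the Frizzled family, the receptor with the most reads per kilobase was *Fzd6* in VEC-positive cells and *Fzd4* in VEC-null cells. Of the family, 9 genes had a row, and *Fzd4* took 31.8%, 32.6% and 32.0% of their summed reads per kilobase in VEC-positive libraries and 40.8%, 40.8% and 40.2% in VEC-null ones. The share of *Fzd6* was 39.3%, 37.7% and 39.3% in VEC-positive and 27.2%, 30.0% and 33.5% in VEC-null libraries. Together they made up most of the family's reads per kilobase in each of the 6 libraries. The ratio of *Fzd4* to *Fzd6* was 0.809, 0.863 and 0.815 in VEC-positive and 1.503, 1.358 and 1.202 in VEC-null libraries, with no overlap (exact two-sided permutation p = 0.1, the smallest possible, adjusted p = 0.125). Here VEC-null 3 was the library nearest to VEC-positive cells. *Fzd4* over *Fzd7* was 6.95, 7.96 and 7.53 in VEC-positive and 8.37, 10.6 and 11.3 in VEC-null libraries, also with no overlap (the same p).

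Each of the other Frizzled genes took a smaller share than *Fzd4* and *Fzd6*. *Fzd5* averaged 6.13% in VEC-positive and 8.77% in VEC-null cells, and *Fzd8* 5.99% in VEC-positive and 6.13% in VEC-null cells. *Fzd7* averaged less, with 4.31% in VEC-positive and 4.09% in VEC-null cells. *Fzd9* and *Fzd2*, named after their values were seen, moved in opposite directions. *Fzd9* had 52.5, 48.7 and 50.8 normalized counts in VEC-positive and 18.4, 21.3 and 31.0 in VEC-null libraries (log2 fold change 1.11, standard error 0.25, adjusted p = 0.00991), and *Fzd2* had 18.7, 29.2 and 14.5 in VEC-positive and 55.1, 55.1 and 41.7 in VEC-null libraries (log2 fold change -1.29, standard error 0.30, adjusted p = 0.0112). As shares of the family, *Fzd9* was 8.17% ± 0.43 in VEC-positive and 3.59% ± 0.58 in VEC-null cells, and *Fzd2* was 2.11% ± 0.80 in VEC-positive and 4.99% ± 1.24 in VEC-null cells (SD, n = 3 each).

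**Figure D3:**
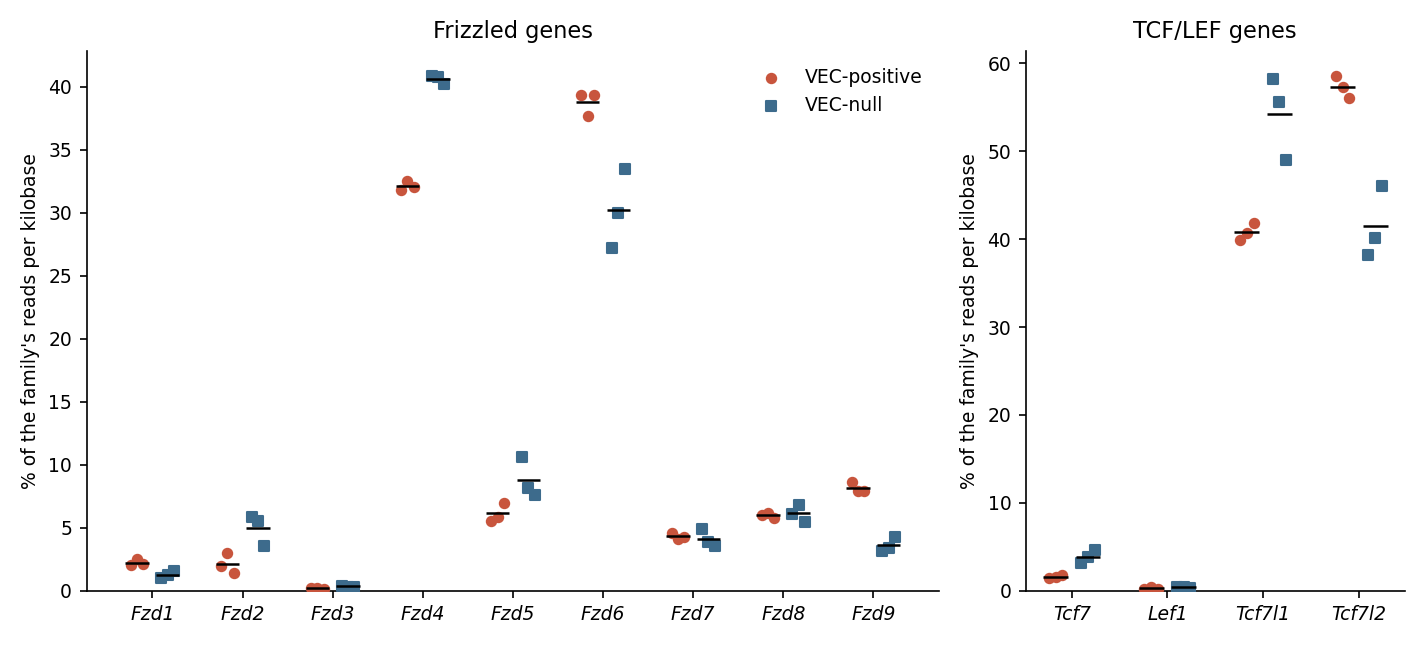
Share of the summed reads per kilobase of annotated exon that each Frizzled gene (left) and each TCF/LEF gene (right) took in each library, in percent (circles, VEC-positive; squares, VEC-null; lines, means). *Fzd6* and *Tcf7l2* took the largest share in VEC-positive libraries, and *Fzd4* and *Tcf7l1* in VEC-null libraries, where *Tcf7l2* led instead by the longest transcript (56.6% against 40.5% for *Tcf7l1*).

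Of the T-cell factors, *Tcf7l2* and *Tcf7l1* were higher in VEC-positive cells and *Lef1* was too low to test. *Tcf7l2*, which encodes Tcf4, the nuclear partner through which β-catenin acts in many epithelia, has its gene on chromosome 19 from 55741820 to 55933654, plus strand (ENSMUSG00000024985). It had 2241, 2321 and 2068 normalized counts in VEC-positive libraries and 754.3, 754.4 and 888.4 in VEC-null ones. Every VEC-positive library was far above every VEC-null library. The log2 fold change was 1.47 (standard error 0.091, adjusted p = 1.49e-05), or 2.77-fold, and it passed in all 17 alternative settings, with values of 1.16 to 1.55. Without VEC-null 3 it was 1.55.

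*Tcf7l1*, also called Tcf3, acts mostly as a repressor of Wnt targets in embryonic stem cells (ENSMUSG00000055799, chromosome 6 from 72626378 to 72789254, minus strand). Its normalized counts were 682.3, 738.4 and 690.8 in VEC-positive libraries and 514.1, 467.8 and 422.0 in VEC-null ones. The groups did not overlap, and the log2 fold change was 0.59 (standard error 0.094, adjusted p = 0.00181), or 1.51-fold. The call held in all 17 alternatives, with values of 0.28 to 0.66.

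The sequence upstream of the annotated starts is shown for these T-cell factors because both were higher in VEC-positive cells. RefSeq (GRCm38.p6) gives 2 starts of *Tcf7l2* and 1 of *Tcf7l1* in its promoter table, each with 250 bases before and 50 after the start. Capitals mark a TCF/LEF heptamer, searched on both strands as CTTTG followed by a pair of letters, each A or T. The FoxO heptamer GTAAACA was searched the same way, and no window of these genes held it.
Tcf7l2, upstream start, chr19:55741560-55741809, plus strand: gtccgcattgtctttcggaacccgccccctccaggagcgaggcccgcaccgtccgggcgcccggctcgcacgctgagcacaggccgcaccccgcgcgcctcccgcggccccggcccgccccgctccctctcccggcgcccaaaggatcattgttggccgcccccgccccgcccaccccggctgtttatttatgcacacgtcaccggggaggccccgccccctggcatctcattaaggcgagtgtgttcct
Tcf7l2, downstream start, chr19:55895071-55895320, plus strand: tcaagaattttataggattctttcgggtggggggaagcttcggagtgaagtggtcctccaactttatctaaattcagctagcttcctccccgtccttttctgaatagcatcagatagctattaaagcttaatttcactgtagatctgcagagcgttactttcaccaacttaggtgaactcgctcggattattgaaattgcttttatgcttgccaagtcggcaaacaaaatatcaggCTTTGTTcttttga
Tcf7l1, chr6:72789046-72789295, minus strand: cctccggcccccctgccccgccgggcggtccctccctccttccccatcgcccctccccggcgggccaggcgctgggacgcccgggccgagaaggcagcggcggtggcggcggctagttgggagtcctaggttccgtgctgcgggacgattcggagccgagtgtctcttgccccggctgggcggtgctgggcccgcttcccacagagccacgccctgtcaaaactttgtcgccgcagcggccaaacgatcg
Of these, only the downstream start of *Tcf7l2* has a heptamer, CTTTGTT, beginning 14 bases before the start. Bases were 72.8% G or C at the upstream *Tcf7l2* start, 40.8% at the downstream one and 73.6% at *Tcf7l1*. In all, 6 of the 10 genes had 10 windows in the table, of which 3 held a TCF/LEF heptamer (1 each of *Fzd7*, *Lef1* and *Tcf7l2*) and 0 held the FoxO heptamer. Among all 32851 windows of the table, 16.9% held a TCF/LEF heptamer and 3.65% the FoxO heptamer. A match is a run of letters, and the gene counts do not tell which *Tcf7l2* start was used.

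*Lef1*, the lymphoid enhancer factor that is itself raised by Wnt signals in many tissues (ENSMUSG00000027985, chromosome 3 from 131110471 to 131224356, plus strand), was close to the limit of detection. It had 7.0, 18.5 and 8.88 normalized counts in VEC-positive libraries and 7.65, 8.66 and 6.21 in VEC-null ones, from 6, 19 and 11 reads in VEC-positive and 5, 11 and 7 reads in VEC-null libraries. VEC-positive 2 was the highest, and the other libraries were intermixed. The ratio of summed reads after scaling was 1.53, with a 95% counting interval of 0.882 to 2.70, so no difference was detectable at this depth. When every gene was tested without the filter, the log2 fold change was 0.45 (adjusted p = 0.558). *Gm43352*, on the opposite strand, shares 1208 exon bases with *Lef1* and had 0.887 to 7.0 normalized counts, and the sources used here do not say whether reads were counted by strand.

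Among the 4 TCF/LEF genes, the share of *Tcf7l2* in the summed reads per kilobase was 57.3% ± 1.24 in VEC-positive and 41.5% ± 4.10 in VEC-null cells, and that of *Tcf7l1* was 40.8% ± 1.01 in VEC-positive and 54.3% ± 4.79 in VEC-null cells (SD, n = 3 each). *Tcf7* and *Lef1* together held the small remainder. These shares were computed after the values were seen. *Tcf7l2* over *Tcf7l1* per kilobase was 1.47, 1.41 and 1.34 in VEC-positive libraries and 0.656, 0.721 and 0.941 in VEC-null ones, so the ratio was 1.84 times as large in VEC-positive cells (no overlap, exact two-sided permutation p = 0.1, the smallest possible, adjusted p = 0.125). Which of them is ahead in VEC-null cells turns on the length used: with the longest annotated transcript in place of all exons, the VEC-null ratios were 1.201, 1.321 and 1.724. *Lef1* over *Tcf7l1* was at most 0.0112 in any library by all exons and 0.0209 by the longest transcript.

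Both target genes were at low levels, and in VEC-positive cells *Apcdd1* was lower while *Axin2* did not pass the test. *Axin2*, the feedback scaffold of the destruction complex and the most widely used readout of β-catenin signaling (ENSMUSG00000000142, chromosome 11 from 108920349 to 108950783, plus strand), had 7.0, 12.7 and 8.88 normalized counts in VEC-positive and 18.4, 18.1 and 9.75 in VEC-null libraries. These come from 6, 13 and 11 reads in VEC-positive and 12, 23 and 11 reads in VEC-null libraries. VEC-null 3 lay among the VEC-positive libraries, so the groups overlapped. The log2 fold change was -0.63 (95% interval -1.54 to 0.28, adjusted p = 0.25), and the ratio of reads was 0.637 with a 95% counting interval of 0.388 to 1.03. Without VEC-null 3 the log2 fold change was -0.91 (adjusted p = 0.0837).

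*Apcdd1*, a membrane glycoprotein that restrains Wnt signals and is itself a β-catenin target in retinal and brain vessels (ENSMUSG00000071847, chromosome 18 from 62922231 to 62961179, plus strand), was lower in VEC-positive cells. It had 30.3, 28.2 and 20.98 normalized counts in VEC-positive libraries (26, 29 and 26 reads) and 67.3, 55.9 and 69.2 in VEC-null ones (44, 71 and 78 reads). The groups were well apart. The log2 fold change was -1.25 (standard error 0.22, adjusted p = 0.00321), or 0.420-fold, and passed in all 17 alternatives with values of -1.56 to -1.10. The ratio of reads was 0.410, with a 95% counting interval of 0.312 to 0.534. This interval covers counting error only.

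Ordered by normalized counts per kilobase of annotated exon, the genes spread widely in both groups. In VEC-positive cells *Lrp5* led with 316 ± 5.89, then *Tcf7l2* with 252 ± 14.7, *Tcf7l1* with 179 ± 7.70, *Lrp6* with 139 ± 6.84, *Fzd6* with 105 ± 4.67 and *Fzd4* with 87.0 ± 2.92 (SD, n = 3), and no neighbours overlapped down to *Fzd7* with 11.7 ± 0.61. In VEC-null cells *Lrp5* led with 182 ± 4.80 (SD, n = 3), and *Tcf7l1*, *Fzd4*, *Lrp6*, *Tcf7l2* and *Fzd6* followed between 119 and 85.9, each overlapping the next. The order depends on the length used, and the choice of the longest transcript as an alternative was made after the values were seen. With it *Tcf7l2* led in VEC-positive cells (595 ± 34.8, against 346 ± 6.45 for *Lrp5*), and in VEC-null cells it averaged 215 ± 20.8, overlapping *Lrp5* with 199.6 ± 5.25 (SD, n = 3 each). *Apcdd1*, *Axin2* and *Lef1* averaged 2.06, 1.73 and 1.30 in VEC-positive cells, where neighbours overlapped, and 4.98, 2.80 and 0.854 in VEC-null cells, where they did not.

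The rest of the pathway was described through 113 other genes in lists by role, of which 92 had a row and 60 were tested. Of these, 17 were higher, 7 lower and 36 did not pass, with a median log2 fold change of 0.08, against 20.9% higher and 16.4% lower over all genes. Of the 60, 3 passed the filter only through one group, 2 of them (*Wnt9b* and *Cldn5*) among the 17. Without VEC-null 3 the counts were 26 higher and 8 lower, where 27.1% of all genes were higher and 23.9% lower. With equal totals they were 9 higher and 23 lower, where 11.2% of all genes were higher and 35.3% lower. Leaving out VEC-positive 1, 2 or 3 gave 10 higher each and 3, 4 and 4 lower. Over all genes these fits gave 15%, 15% and 16% higher and 11.3%, 11.7% and 12% lower. Leaving out VEC-null 2 gave 11 higher and 6 lower, where 16.5% of all genes were higher and 12.8% lower.

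Ligands were sparse. Of 20 listed (Wnts and norrin), 10 had a row and 3 were tested. *Wnt9b*, named after its value was seen, had 92 reads in VEC-positive and 3 in VEC-null libraries, which after scaling is 30.0-fold (95% counting interval 9.94 to 148). It passed the filter only through the VEC-positive libraries, so its place in the test is no support for that difference. *Wnt4* had 101.5, 59.4 and 95.2 normalized counts in VEC-positive and 136.2, 135.5 and 78.9 in VEC-null libraries and did not pass (adjusted p = 0.253), although without VEC-null 3 it was lower (log2 fold change -0.70, adjusted p = 0.0303). *Wls*, the carrier that Wnts need for secretion, differed by 0.24 on the log2 scale (adjusted p = 0.173), against 0.38 (adjusted p = 0.0042) without VEC-null 3. Of the 14 secreted antagonists only *Dkk2*, which binds Lrp6, was tested. It had 272.9, 314.6 and 286.5 normalized counts in VEC-positive and 200.4, 117.3 and 62.9 in VEC-null libraries, a log2 fold change of 1.34 (adjusted p = 0.0194) that did not pass without VEC-positive 1, 2 or 3 or VEC-null 2 (adjusted p = 0.0531 to 0.0683).

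Of the other receptors and coreceptors, 14 of 21 were tested, 3 were higher and 3 lower, where 20.9% of all genes were higher and 16.4% lower. *Tspan12*, the tetraspanin that joins the norrin receptor, had 634.5, 653.6 and 566.5 normalized counts in VEC-positive and 353.4, 301.6 and 468.1 in VEC-null libraries (log2 fold change 0.74, adjusted p = 0.00702). *Adgra2*, also called Gpr124, which with Reck conveys Wnt7 signals in brain vessels, had 458.4, 437.4 and 502.7 in VEC-positive and 619.7, 633.9 and 773.1 in VEC-null libraries (log2 fold change -0.53, adjusted p = 0.00628). The groups did not overlap for either gene, while *Reck* itself did not pass (log2 fold change 0.41, adjusted p = 0.187). *Ryk*, an atypical receptor, was higher (0.44, adjusted p = 0.0298) and *Fzd5* lower (-0.56, adjusted p = 0.0229), but *Ryk* did not pass in 8 and *Fzd5* in 4 of the alternatives. With equal totals the list had 2 higher and 7 lower, beside 11.2% of all genes higher and 35.3% lower.

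In the cytoplasm, 17 of 20 listed genes were tested. Of these, 2 were higher and 1 lower, where 20.9% of all genes were higher and 16.4% lower. The fit without VEC-null 3 gave 5 higher and 2 lower, where the shares of all genes were 27.1% and 23.9%. With all libraries 14 did not pass, among them *Ctnnb1*, which encodes β-catenin (log2 fold change 0.10, adjusted p = 0.519). *Ctnnb1* had 7301, 7515 and 6902 normalized counts in VEC-positive and 6365, 6166 and 7914 in VEC-null libraries. Its call or direction changed in 3 alternatives, and without VEC-null 3 it passed as higher. *Gsk3b*, the kinase that marks β-catenin, was higher with 2194, 1967 and 2231 normalized counts in VEC-positive and 1441, 1366 and 1607 in VEC-null libraries (log2 fold change 0.53, adjusted p = 0.00216), though not with equal totals. That scaling gave this list 0 higher and 9 lower, where 11.2% of all genes were higher and 35.3% lower. The tankyrase *Tnks2*, which turns over Axin, was higher (0.33, adjusted p = 0.0386) but not in 10 alternatives, and *Amer1*, a partner of APC, was lower (-0.40, adjusted p = 0.0226) but not in 4.

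Nuclear partners of TCF/LEF numbered 16 tested of 17, with 7 higher and 2 lower, where 20.9% of all genes were higher and 16.4% lower. *Tle2*, a Groucho corepressor that T-cell factors recruit in the absence of β-catenin, had 169.1, 176.3 and 140.4 normalized counts in VEC-positive and 27.5, 59.9 and 45.2 in VEC-null libraries (log2 fold change 1.91, standard error 0.27, adjusted p = 0.00104). *Ctnnbip1*, which keeps β-catenin from T-cell factors, had 527.2, 581.6 and 528.6 in VEC-positive and 373.3, 342.6 and 335.1 in VEC-null libraries (log2 fold change 0.64, adjusted p = 0.000862). Both passed in every alternative run. Of the other Groucho genes, *Tle4* was higher (0.49, adjusted p = 0.00355, not with equal totals) and *Tle1* lower (-0.50, adjusted p = 0.0435, not in 8 alternatives), while *Tle3* had 1423 ± 53.0 normalized counts in VEC-positive and 1435 ± 79.3 in VEC-null cells (SD, n = 3 each) and did not pass. With equal totals the list had 2 higher and 6 lower, where 11.2% of all genes were higher and 35.3% lower.

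Of 13 other common Wnt target genes, 6 were tested, with 1 higher and 1 lower, where 20.9% of all genes were higher and 16.4% lower. *Ccnd1*, which encodes cyclin D1 and has many other regulators, was higher (log2 fold change 1.36), and *Tnfrsf19*, also called Troy, a β-catenin dependent gene of brain endothelium, was lower in VEC-positive cells. *Tnfrsf19* had 43.2, 41.9 and 27.4 normalized counts in VEC-positive and 131.6, 145.7 and 168.5 in VEC-null libraries, with -1.98 as log2 fold change (standard error 0.22, adjusted p = 0.000254). The groups were far apart, as they were for *Apcdd1*. *Bambi* and *Znrf3* did not pass, with log2 fold changes of 0.05 and -0.06. *Nkd1*, *Nkd2*, *Rnf43*, *Notum*, *Sp5*, *Lgr5* and *Dkk1* had rows but were below the filter. Among 5 tested of 11 β-catenin dependent genes of brain endothelium, *Cldn5* and *Plvap* were higher and *Tnfrsf19* lower, beside the same shares of all genes. *Cldn5* passed the filter only through the VEC-positive libraries, with 9.18 or fewer normalized counts in each VEC-null library. In these cells the paper describes FoxO1 and β-catenin as repressors of *Cldn5*, so its place in this list gives it no set direction. *Plvap*, the diaphragm protein of leaky vessels that β-catenin represses, had 7637, 8024 and 7475 normalized counts in VEC-positive and 3596, 2759 and 2772 in VEC-null libraries (log2 fold change 1.35, adjusted p = 6.45e-05). *Slc2a1*, the glucose transporter of the blood-brain barrier, did not pass (0.27, adjusted p = 0.357). *Abcb1a*, at 19.6 ± 3.60 normalized counts in VEC-positive and 9.95 ± 5.66 in VEC-null libraries (SD, n = 3 each), did not pass either (1.04, adjusted p = 0.104). Without VEC-null 3 both passed as higher. The list then had 4 higher and 1 lower, where 27.1% of all genes were higher and 23.9% lower.

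**Figure D4:**
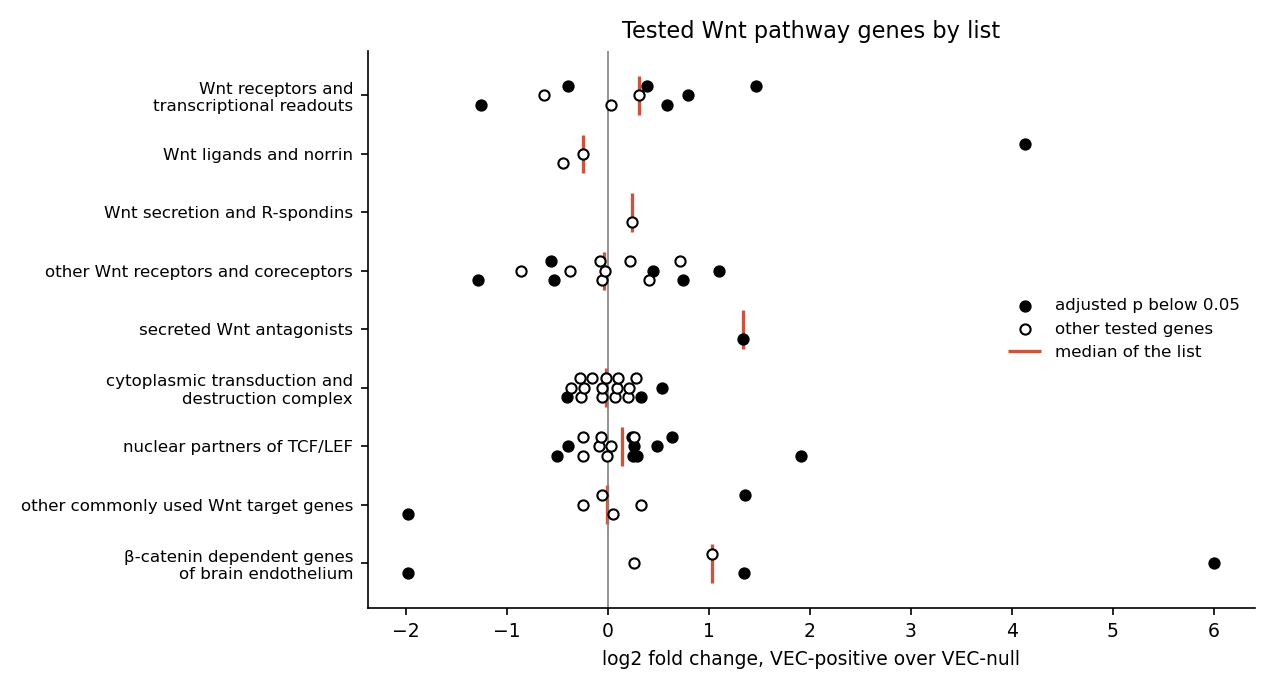
Log2 fold changes (VEC-positive over VEC-null) of the tested genes, by list (filled, adjusted p below 0.05; open, other tested genes; red line, median of the list). The 9 tested of the 10 receptor and readout genes are in the top row, and *Tnfrsf19*, which belongs to 2 lists, is the point at -1.98.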

How the data were processed

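RNA of VEC-positive and VEC-null cells was measured with a SMARTer stranded total RNA kit, in 3 libraries of each, grouped by the genotype label. The processing notes of the submitters name Trim Galore, TopHat2 2.1.1, the mm10 build and DESeq2 1.14, while the sources used here do not name the counting program, its use of strand or the annotation. In the deposited table, the signal values are gene counts after the authors' division by a size factor for each library. Values were turned back into whole reads, 100% of them within 0.01 of a read, and these numbered 9598590, 12233975 and 14136376 in VEC-positive 1, 2 and 3 and 6036155, 11670273 and 10587041 in VEC-null 1, 2 and 3. The paper calls the libraries biological replicates, but the labels do not say whether they come from separate cultures, so p-values measure the spread between these libraries, which may be technical.

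Symbols of 23908 of the 24080 genes, coordinates and exon lengths came from GENCODE M21, of the same build. The 14032 genes with at least 10 normalized counts in at least 3 libraries were compared as log2(value + 1) in limma 3.58.1 (R 4.3.3) with a mean-variance trend, with a two-sided test, Benjamini-Hochberg adjustment across those genes and a threshold of 0.05. Fold changes on this scale understate the change of low genes. The script was tested on simulated data. Levels of different genes were compared per kilobase of the union of annotated exons. Ratios of 2 genes were compared by exact two-sided permutation over the 6 libraries. Ratios of few reads carry exact 95% counting intervals, which cover counting error only.

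The 10 genes and all lists were chosen with earlier results of these data known. Named are the 10 genes, *Cdh5*, and of each other list the 4 or fewer genes that passed with the largest absolute change and averaged 50 or more normalized counts, plus up to 2 abundant ones that did not pass. *Fzd8*, *Fzd9*, *Fzd2*, *Wnt9b*, *Reck* and the genes listed as below the filter fall outside that rule. Alternatives were pseudocounts of 0.5 and 5, no filter, a filter of 50, equal totals with and without mitochondrial transcripts, TMM scaling, no mean-variance trend, DESeq2 1.42.0 and edgeR 4.0.16 on whole reads, the replicate number as a block, and leaving out each library. With edgeR 2817 genes were higher and 2506 lower. Promoter sequences are from RefSeq. Figures were drawn with matplotlib 3.10.9.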

Additional observations from a re-analysis of the deposited data

How the results depend on the processing

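The directions of *Lrp5*, *Tcf7l1*, *Tcf7l2* and *Apcdd1* and their side of the threshold were kept in all 17 alternatives, and none of the 6 genes that passed turned its direction. Of the 9 tested genes, 4 were higher in each alternative except equal totals with or without mitochondrial transcripts (3 each, without *Lrp6*) and the fit without VEC-null 3 (5, with *Fzd6*). The number lower was 2 in each alternative except 1 without VEC-positive 1, a leave-one-out range of 1 to 2. Among the other pathway genes, the number higher was 17, against 9 with equal totals, 11 with equal totals without mitochondrial transcripts and 10 to 26 when libraries were left out. The number lower was 7, against 23 with equal totals and 3 to 8 when libraries were left out. In the fits with a library left out, 15% to 27.1% of all genes were higher and 11.3% to 23.9% lower. Over all genes the median log2 difference was -0.32 with equal totals and -0.16 with equal totals without mitochondrial transcripts. The cause of these shifts was not tested. Over all genes, 2927 were higher and 2304 lower, against 1566 and 4960 with equal totals, 2051 and 3166 with equal totals without mitochondrial transcripts, and 3800 and 3359 without VEC-null 3.

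Labels give both groups the numbers 1 to 3. Libraries of the same number did not deviate together, with correlations of 0.08, -0.33 and -0.30 for numbers 1, 2 and 3. These values cannot exclude pairing by number, because each group has 3 libraries and VEC-null 3 stood apart from the other VEC-null ones. With the replicate number as a block, the counts over the 9 genes stayed at 4 higher and 2 lower. Those of the other pathway genes were 13 higher and 3 lower. Over all genes that fit gave 17.1% higher and 12.4% lower, against 20.9% and 16.4% without the block.

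With the length of the longest transcript in place of all exons, the Frizzled share of *Fzd4* was 30.8% in VEC-positive and 39.3% in VEC-null cells and that of *Fzd6* 41.4% in VEC-positive and 32.5% in VEC-null cells. Depth limits *Lef1* and *Axin2*, with 5 to 23 reads per library, for which only large differences could have been seen.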
